A study of Arabidopsis thaliana with 4 samples.

Results

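The response of seedlings of the Arabidopsis thaliana double mutant hfr1 pil1 to 96 h of simulated shade was read from 2 of the 4 samples in the series, 1 for each light. Every locus whose mean over the 4 deposited columns reached 10.8 normalized counts was compared, which kept 20111 of 33558 loci. A normalized count is a read count divided by 1 size factor per library. The locus nearest the limit from above averaged 10.84 normalized counts, and the nearest from below 10.83.

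The mutant carries the genotype label hfr1-4pil1-2, and the labels give no background line for it. The hfr1 pil1 low R:FR group was 7 days old and had spent 3 d in white light before 96 h in light poor in red relative to far-red (low R:FR), with red at 13 µE, blue at 1.23 µE and far-red at 20 µE. The hfr1 pil1 white light group was of the same age and stayed in white light of 30 to 50 µE, with an R:FR of 1.2, for all 7 d. The amount of light thus changed with R:FR, and the effects of each cannot be told apart. Col-0, the common laboratory accession, was grown in low R:FR and in white light in the same way. It served here to estimate the spread between libraries and to show where the mutant response differed. All groups grew at 22 °C on agar without sucrose, and shoots were collected.

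Plants read shade from R:FR because leaves absorb red light and pass far-red light. Low R:FR returns phytochrome B to its inactive form, which lets PHYTOCHROME INTERACTING FACTORs (PIFs) build up and switch on genes of auxin synthesis, cell expansion and early flowering. Shade also induces HFR1 and PIL1, helix-loop-helix proteins that bind PIFs and restrain them. The genotype label names mutations in both genes, and the comparison asks which transcripts responded to several days of shade in that line.

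The low R:FR library held 7358583 reads and the white light library 14684713. A log2 ratio below compares the deposited values after 10.8 normalized counts were added to each, which understates the change of low genes. Loci at a log2 ratio of at least 1, or of -1 or less, are called at least 2-fold higher or lower. A value with ± is the log2 fold change fitted by edgeR with an approximate standard error (SE), and "rose" and "fell" mean an edgeR adjusted p under 0.05. Each mutant group holds 1 library, so this test took its spread from 2 libraries recovered behind each Col-0 column and assumed that mutant libraries vary like them. Nothing says that these came from separate plants, and the spread the p-values measure may be technical. In bulk shoots, fewer cells of a type and less RNA per cell cannot be told apart.

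Mutant loci moved in both directions in low R:FR. At least 2-fold higher were 1304 loci (6.48%) and at least 2-fold lower 918 (4.56%). Past 4-fold there were 252 higher and 103 lower loci, and past 16-fold 11 and 9. Of 20010 loci that could be tested, 3677 rose (18.4%) and 3707 fell (18.5%), 36.9% together, and the counts of list members below are read against these shares. Both sets overlap widely, since 1294 of the 2-fold higher loci rose and 897 of the 2-fold lower loci fell. The median log2 ratio over all loci compared was -0.0056. DESeq2 called 1801 risen and 1763 fallen loci from the same reads, and all of these were also edgeR calls. With the columns rescaled to the same total the median shifted by 0.139, and increases made up 71.6% of the 2-fold changes, against 58.7% with the deposited scaling.

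**Figure D1:**
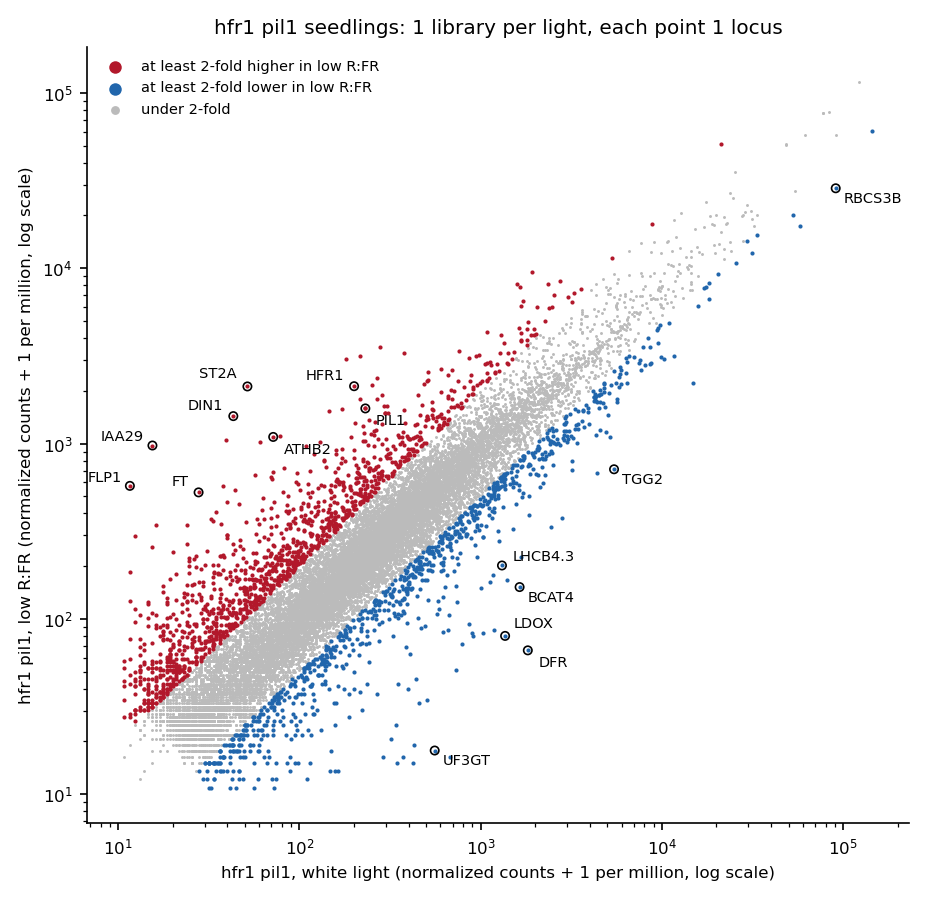
Normalized counts of the 20111 loci compared in the low R:FR library (vertical axis) against the white light library (horizontal axis) of hfr1 pil1, both with 10.8 added and on log scales. Red points are the 1304 loci at least 2-fold higher in low R:FR and blue points the 918 at least 2-fold lower.

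HFR1 (AT1G02340) and PIL1 (AT2G46970), the genes named in the genotype, were both transcribed in the mutant libraries. HFR1 had 2112 normalized counts in low R:FR and 189 in white light and rose by 3.48 ± 0.14 (SE; edgeR adjusted p = 6.76e-09). PIL1 had 1574 normalized counts in low R:FR and 220.3 in white light and rose by 2.84 ± 0.16 (SE; edgeR adjusted p = 5.87e-08). The exact 95% interval of the log2 ratio of reads, which covers counting error only, was 3.28 to 3.68 for HFR1 and 2.65 to 3.03 for PIL1. Col-0 had 2203 in low R:FR and 27.9 in white light for HFR1 and 277 in low R:FR and 16.5 in white light for PIL1, so both transcripts were higher in mutant than in Col-0 white light. A mutated gene can still be transcribed, so these levels do not check the label.

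The loci with the highest log2 ratios include genes of auxin response, ethylene synthesis, flowering, defence and starvation. IAA29, an Aux/IAA protein of auxin signalling, stood first with 963 normalized counts in low R:FR and 4.62 in white light (7.67 ± 0.28, SE; edgeR adjusted p = 3.65e-09). For IAA29 the reads were 697 and 6, and the exact 95% interval of their log2 ratio was 6.57 to 9.16, wider than the SE. FLP1, a small protein that promotes flowering, had 563 normalized counts in low R:FR and 0.770 in white light. That is 407 reads and 1 read, so the exact 95% interval of the log2 ratio of reads was 7.03 to 14.82. ST2A, a sulfotransferase that inactivates a hydroxylated jasmonate, had 2105 normalized counts in low R:FR and 40.8 in white light (5.68 ± 0.17, SE). DIN1, a dark-inducible gene of senescing leaves, had 1422 normalized counts in low R:FR and 32.3 in white light (5.45 ± 0.21, SE). All 20 named loci with the highest ratios rose by edgeR, and DESeq2 called all 20 too. They were picked by ratios of the same reads, so these calls are no separate support.

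The loci with the lowest log2 ratios include genes of anthocyanin synthesis, low oxygen and glucosinolate synthesis. UF3GT, which adds a sugar to anthocyanins, had 6.91 normalized counts in low R:FR and 547 in white light (-6.28 ± 0.36, SE; edgeR adjusted p = 6.69e-08). For UF3GT the reads were 5 and 710, with an exact 95% interval of the log2 ratio of -7.93 to -5.08. DFR, the enzyme that turns flavonoid precursors towards anthocyanins, had 55.3 normalized counts in low R:FR and 1809 in white light (-5.03 ± 0.23, SE). HAK5, a potassium carrier, had 2.76 normalized counts in low R:FR and 146 in white light, which is 2 and 189 reads, with an exact 95% interval of the log2 ratio of -8.77 to -3.85. All 20 named loci with the lowest ratios fell by edgeR, and DESeq2 called all 20 too. These loci were likewise picked by their ratios, so the calls add no separate support.

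**Figure D2:**
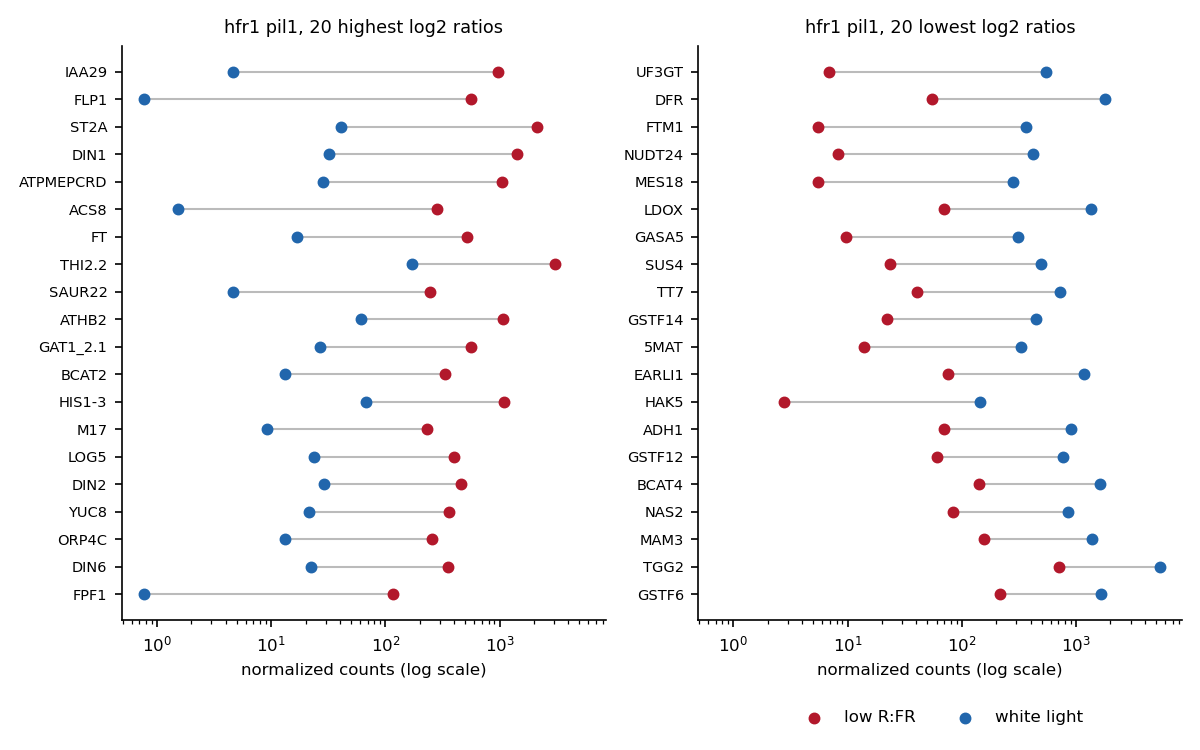
Normalized counts (log scale) in the low R:FR library (red) and the white light library (blue) of hfr1 pil1 for the 20 named loci with the highest and the 20 with the lowest log2 ratio, 1 locus per row. By the way the loci were picked, the red point lies to the right in all 20 rows from IAA29 to FPF1. It lies to the left in all 20 rows from UF3GT to GSTF6.

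PIFs bind the G-box, CACGTG, so the 1000 bases before each annotated gene start were searched in the TAIR10.1 assembly with its RefSeq annotation. CACGTG reads the same on both strands. It was found before 21.7% of the loci at least 2-fold higher (282 of 1299), 18.1% of those at least 2-fold lower (163 of 901) and 16% of all loci compared (3197 of 19942). CATGTG, a related PIF site searched on both strands, was found before 48.5%, 39.3% and 38.2% of the same sets, and the auxin response element TGTCTC, also on both strands, before 36.6%, 42.3% and 40.1%. Windows that hold more than 1 of these motifs count for each. Past 4-fold, CACGTG was found before 27.4% of the higher loci (69 of 252) and 17% of the lower ones (17 of 100). Within 250 bases it was found before 14.7% (37 of 252) and 5% (5 of 100) of these, and before 7.44% of all loci compared. Of the fewer named loci, CACGTG stood before 2 of the 20 with the highest ratios, YUC8 and DIN6, and before 7 of the 20 with the lowest. IAA29, ST2A, FT and ATHB2 have no CACGTG within this window. Windows were not cut where they ran into a neighbouring gene, and the 86 bases around the DIN6 copy overlap another annotated gene.

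Stretches around the G-box nearest the start are shown for YUC8, which rose, and for 4 genes of glucosinolate and anthocyanin synthesis that fell, with CACGTG in capitals. They run 5′ to 3′ on the gene's strand, at chr4:14192081-14192166 (plus strand), chr3:6849911-6849996 (minus), chr5:2559738-2559823 (plus), chr4:12006466-12006551 (minus) and chr5:17166033-17166086 (minus) in this order.
YUC8: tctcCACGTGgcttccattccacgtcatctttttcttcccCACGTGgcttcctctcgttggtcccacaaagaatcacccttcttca
BCAT4: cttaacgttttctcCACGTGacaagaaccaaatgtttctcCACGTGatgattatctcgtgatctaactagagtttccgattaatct
TT7: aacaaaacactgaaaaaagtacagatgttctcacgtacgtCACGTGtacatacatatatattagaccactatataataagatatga
LDOX: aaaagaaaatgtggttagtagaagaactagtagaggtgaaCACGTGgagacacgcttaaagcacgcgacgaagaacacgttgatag
DFR: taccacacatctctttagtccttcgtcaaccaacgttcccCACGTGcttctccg
The nearest G-box starts 448 bases before the gene start in YUC8, 374 in BCAT4, 550 in TT7, 302 in LDOX and 14 in DFR. The stretches of YUC8 and BCAT4 each hold 2 copies. The same 6 letters thus stand before genes that moved in opposite directions, and a match does not show that a protein binds there.

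Most regulators of the shade response rose. Of 20 compared, 17 rose and 0 fell, with a median log2 ratio of 1.59. ATHB2, a homeodomain-leucine zipper factor and classic shade marker, had 1079.5 normalized counts in low R:FR and 60.8 in white light (4.15 ± 0.17, SE). PKS4, a phytochrome kinase substrate protein, had 210.1 normalized counts in low R:FR and 13.9 in white light (3.91 ± 0.28, SE). PAR1, a helix-loop-helix brake on the shade response like HFR1, had 141 normalized counts in low R:FR and 38.5 in white light. Its relative PAR2 had 214 normalized counts in low R:FR and 54.7 in white light. The members without a call were HAT3, LZF1 and CKX6.

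Of 6 PIF genes compared, 4 rose. PIF4, which drives growth in shade and warmth, had 792 normalized counts in low R:FR and 126 in white light (2.65 ± 0.13, SE). PIF5, its close relative, had 738 normalized counts in low R:FR and 259.5 in white light (1.51 ± 0.11, SE). PIL2 rose by 1.43 ± 0.198 and PIF3 by 0.93 ± 0.18 (SE). PIF7, a main driver of the response to low R:FR, had 263 normalized counts in low R:FR and 205 in white light and no call, and neither had PIF1. Of 25 photoreceptor and light signalling genes edgeR called 7 risen and 4 fallen, against 5 and 1 with DESeq2. PHYA, the far-red sensor, had 2463 normalized counts in low R:FR and 873 in white light (1.496 ± 0.09, SE), and the blue light receptor PHOT1 rose by 1.22 ± 0.09 (SE). ELIP1, a protein of strong light, had 304 normalized counts in low R:FR and 623 in white light.

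Auxin genes rose at several steps of the pathway. For synthesis and transport, 11 of 21 rose and 5 fell, against 8 and 2 with DESeq2. YUC8, an enzyme of the last step of auxin synthesis, had 361 normalized counts in low R:FR and 21.6 in white light (4.06 ± 0.23, SE; edgeR adjusted p = 6.69e-08). YUC9, of the same family, rose by 2.42 ± 0.27 (SE). TAR2, an aminotransferase of the step before, had 74.6 normalized counts in low R:FR and 224 in white light (-1.58 ± 0.19, SE). PIN3, an auxin exporter that redirects the flow in shade, had 1657 normalized counts in low R:FR and 727 in white light. Of 20 Aux/IAA genes, auxin-induced repressors of the response, 12 rose and 0 fell. IAA19 had 344 normalized counts in low R:FR and 40.05 in white light, and IAA2 rose by 2.47 ± 0.12 (SE).

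SAUR genes, which encode small auxin-induced proteins of cell expansion, were read from a chosen list of 15. The 13 compared had a median log2 ratio of 1.98, and 12 of 13 rose. These counts hold for the list and not for the family. Most are low in white light, and with 5 times the added value the median was 0.88 and the members at least 2-fold higher numbered 6, against 11. SAUR22 had 246 normalized counts in low R:FR and 4.62 in white light (5.702 ± 0.37, SE). SAUR20 had 209 normalized counts in low R:FR and 15.4 in white light (3.75 ± 0.28, SE). These genes are close copies, and how the authors' counting shared reads among copies is not known here. Of 9 GH3 genes, enzymes that couple hormones to amino acids, 4 rose and 1 fell (4 and 0 with DESeq2), led by GH3.5 with 1254 normalized counts in low R:FR and 215 in white light (2.54 ± 0.14, SE).

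Ethylene genes rose in 14 of 23 cases and fell in 1, against 7 and 0 with DESeq2. ACS8, a synthase of the ethylene precursor, had 285 normalized counts in low R:FR and 1.54 in white light. That is 206 and 2 reads, with an exact 95% interval of the log2 ratio of 5.66 to 10.59. ACO4, an oxidase of the last step, had 4176 normalized counts in low R:FR and 2003 in white light (1.06 ± 0.097, SE).

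Wall-loosening genes rose more often than they fell, and some members moved against the rest. Of 22 expansins, which let walls extend, 12 rose and 5 fell. EXPA8 had 1476 normalized counts in low R:FR and 286 in white light (2.37 ± 0.17, SE), whereas EXPA15 had 311 normalized counts in low R:FR and 963 in white light (-1.63 ± 0.17, SE). Of 26 xyloglucan hydrolases tested, enzymes that cut and rejoin wall polymers, 16 rose and 2 fell. XTH15 had 1009 normalized counts in low R:FR and 119 in white light (3.09 ± 0.18, SE), whereas XTH31 had 326 normalized counts in low R:FR and 1062 in white light (-1.703 ± 0.11, SE). XTH4, which could not be tested, had 9503 normalized counts in low R:FR and 1907 in white light. Of 16 genes of cellulose and wall assembly 9 rose and 1 fell, against 5 and 0 with DESeq2.

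Of 20 brassinosteroid genes 13 rose and 0 fell. BR6OX1, a late enzyme of the hormone's synthesis, had 85.7 normalized counts in low R:FR and 13.1 in white light (2.701 ± 0.33, SE), and BAS1, which inactivates the hormone, had 203 normalized counts in low R:FR and 84.7 in white light (1.26 ± 0.22, SE). Of 17 growth-related helix-loop-helix genes 14 rose and 0 fell. PRE1, which promotes elongation, had 80.2 normalized counts in low R:FR and 3.85 in white light (4.34 ± 0.499, SE). IBH1, an inhibitor that PRE1 counters, had 348 normalized counts in low R:FR and 106 in white light (1.71 ± 0.16, SE). Promoters and inhibitors of growth were thus both among the genes that rose.

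Gibberellin genes were split, with 9 of 23 risen and 4 fallen, against 5 and 2 with DESeq2. GASA6, a gibberellin-induced peptide, had 3356 normalized counts in low R:FR and 747 in white light (2.17 ± 0.14, SE), whereas GASA5, of the same family, had 9.68 normalized counts in low R:FR and 307 in white light (-4.97 ± 0.29, SE). GA20OX1, an enzyme of synthesis, rose by 2.29 ± 0.46 (SE). Of 30 cytokinin genes 9 rose and 9 fell, against 5 and 3 with DESeq2. LOG5, which activates cytokinin, had 395 normalized counts in low R:FR and 23.9 in white light (4.04 ± 0.21, SE), and CKX5, which degrades it, had 574 normalized counts in low R:FR and 101 in white light. ARR7, which dampens the signal, had 53.9 normalized counts in low R:FR and 137 in white light. Of 14 karrikin and strigolactone genes 5 rose and 0 fell, against 3 and 0 with DESeq2, with the F-box gene MAX2 at 462 normalized counts in low R:FR and 191 in white light.

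**Figure D3:**
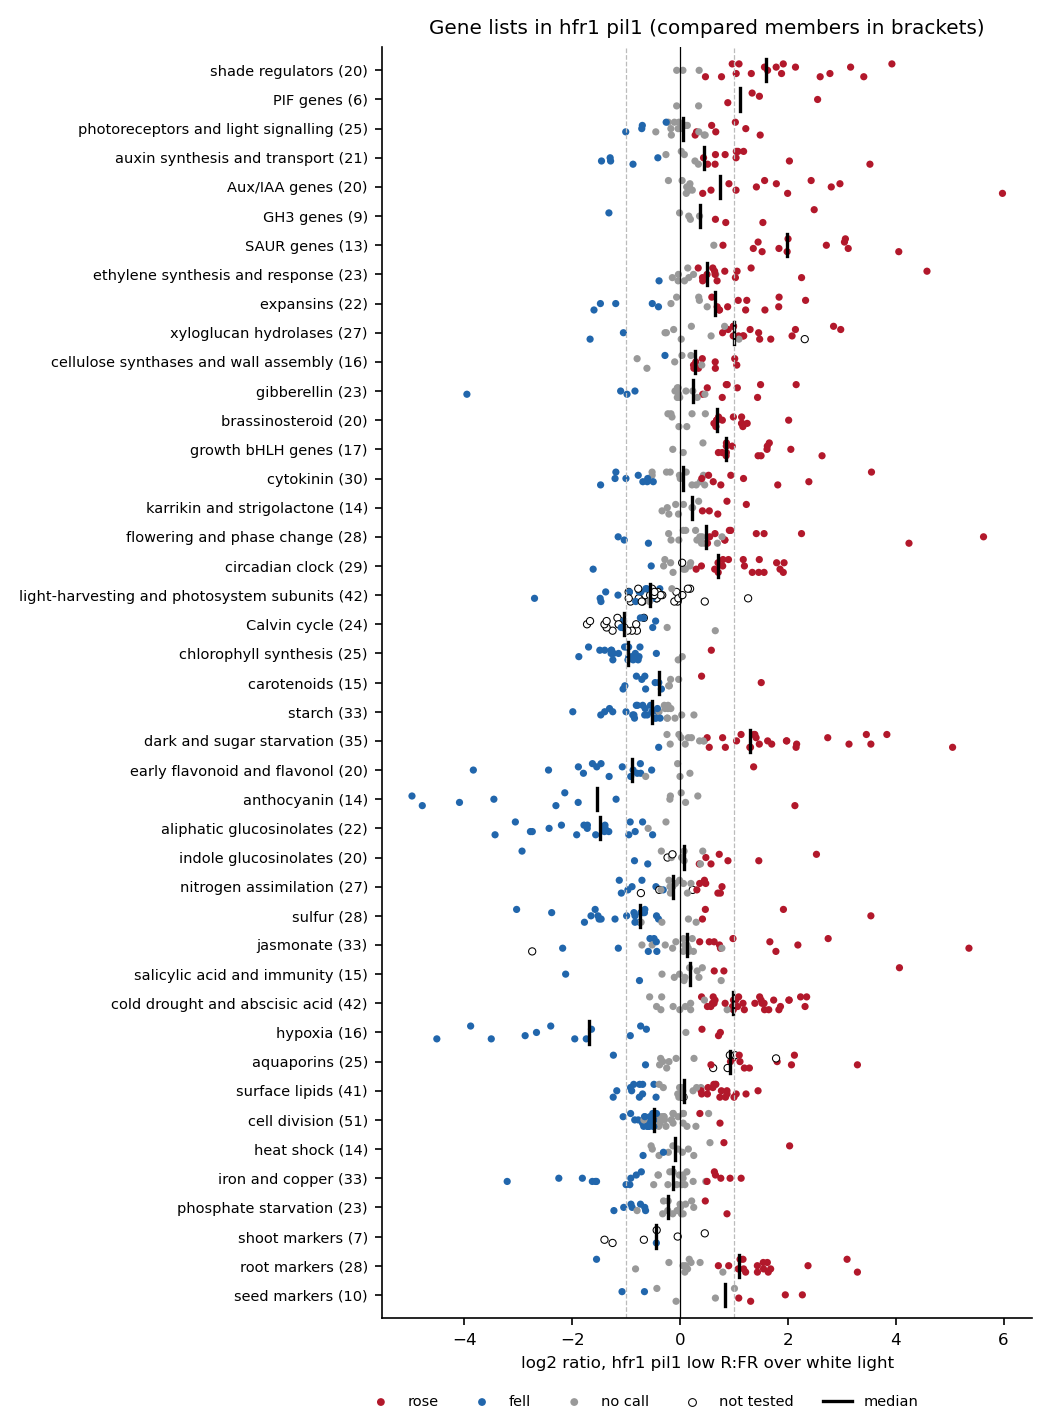
Log2 ratio of hfr1 pil1 low R:FR over white light for the compared members of the gene lists, 1 point per locus, with each list's median as a black bar. Red members rose and blue members fell by edgeR, grey members had no call, open circles could not be tested, and the medians run from 1.98 for SAUR genes to -1.69 for hypoxia genes.

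Of 28 flowering genes 12 rose and 3 fell, against 8 and 0 with DESeq2. FT, the mobile signal from leaves to the shoot tip, had 516 normalized counts in low R:FR and 16.9 in white light (4.92 ± 0.19, SE; edgeR adjusted p = 5.72e-09). SOC1, which acts downstream of FT, had 404 normalized counts in low R:FR and 76.2 in white light (2.403 ± 0.16, SE). FLC, a repressor of both, had 141 normalized counts in low R:FR and 46.2 in white light and also rose, while CO, an activator of FT, had 41.5 normalized counts in low R:FR and 42.4 in white light and no call. Of 28 clock genes tested 18 rose and 2 fell (15 and 1 with DESeq2). The daytime repressors PRR7 and PRR9 rose by 1.96 ± 0.13 and 2.14 ± 0.24 (SE), and GI, which links clock and flowering, had 957 normalized counts in low R:FR and 318 in white light. LHY, a morning repressor, had 191 normalized counts in low R:FR and 606 in white light (-1.67 ± 0.16, SE), and its close relative CCA1 had 343 normalized counts in low R:FR and 377 in white light with no call.

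Most genes of carbon fixation were lower. Of 24 Calvin cycle genes 13 were at least 2-fold lower and 0 at least 2-fold higher, with a median log2 ratio of -1.04. With the columns rescaled to the same total 7 were at least 2-fold lower and the median was -0.89. Only 8 could be tested, of which 6 fell, because the highest Col-0 values do not resolve into whole reads. RBCS3B, a small subunit of Rubisco with near-identical copies, had 28545 normalized counts in low R:FR and 90948 in white light. CA1, a carbonic anhydrase, had 20079 normalized counts in low R:FR and 53141 in white light. TIM, a triose phosphate isomerase that could be tested, had 2729 normalized counts in low R:FR and 5837 in white light (-1.097 ± 0.09, SE).

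Light-harvesting and photosystem genes were mostly lower, with exceptions among the most abundant. Of 16 tested 14 fell and 0 rose, and the median log2 ratio of all 42 was -0.56. LHCB4.3, a minor antenna protein, had 191 normalized counts in low R:FR and 1300.0 in white light (-2.77 ± 0.12, SE). LHB1B2, a major antenna protein that could not be tested, was higher, with 50776 normalized counts in low R:FR and 21191 in white light. Its near-identical copy LHB1B1 had 1703 normalized counts in low R:FR and 4733 in white light, and reads may have been shared between the copies, so both levels are uncertain. CAB3 and LHCB3, not tested either, had log2 ratios of 0.04 and 0.14.

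Chlorophyll synthesis genes fell in 22 of 25 cases and rose in 1, with a median log2 ratio of -0.97. HEME1, an enzyme early in the pathway, had 587 normalized counts in low R:FR and 2190.3 in white light (-1.898 ± 0.104, SE; edgeR adjusted p = 5.03e-08). PORC, a light-dependent enzyme near its end, had 1067 normalized counts in low R:FR and 2833 in white light (-1.41 ± 0.103, SE). GLK2, a factor of chloroplast development, was the gene that rose (0.58 ± 0.11, SE), and its partner GLK1 fell (-0.44 ± 0.11, SE). Of 15 carotenoid genes 9 fell and 2 rose, while DESeq2 called 5 fallen and 2 risen. PSY, the entry enzyme, had 1572 normalized counts in low R:FR and 3286 in white light, and NCED4, which cleaves carotenoids, had 1863 normalized counts in low R:FR and 650.0 in white light.

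Of 33 starch genes 22 fell and 0 rose. PGM, the plastid phosphoglucomutase that starch synthesis needs, had 810.0 normalized counts in low R:FR and 2267 in white light (-1.48 ± 0.103, SE). Genes of darkness and sugar starvation went the other way, with 24 of 35 risen, 1 fallen (23 and 0 with DESeq2) and a median log2 ratio of 1.29. DIN6, an asparagine synthetase, had 352 normalized counts in low R:FR and 22.3 in white light (3.97 ± 0.22, SE). BCAT2, which breaks down branched-chain amino acids, had 330.4 normalized counts in low R:FR and 13.1 in white light (4.65 ± 0.23, SE). ORE1, a factor of leaf ageing, had 156 normalized counts in low R:FR and 31.6 in white light. NYC1 and NYE1, genes of chlorophyll breakdown, had no call, at -0.25 ± 0.12 and 0.16 ± 0.16 (SE).

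Plastid-encoded loci took 2.74% of the reads in low R:FR and 2.45% in white light. Of 93 plastid loci tested 7 rose and 24 fell, and of 30 mitochondrial loci 0 rose and 1 fell.

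Flavonoid genes fell from early steps to late ones. Of 20 early flavonoid and flavonol genes 15 fell and 1 rose, and of 14 anthocyanin genes 8 fell and 1 rose. TT4, chalcone synthase, had 2628 normalized counts in low R:FR and 7699 in white light (-1.55 ± 0.11, SE). TT7, the hydroxylase that leads to cyanidin pigments, had 40.1 normalized counts in low R:FR and 716 in white light (-4.16 ± 0.29, SE; edgeR adjusted p = 3.23e-07). LDOX, a late enzyme, had 69.1 normalized counts in low R:FR and 1353 in white light (-4.29 ± 0.23, SE). GSTF12, needed to move pigment to the vacuole, had 60.8 normalized counts in low R:FR and 775 in white light (-3.67 ± 0.17, SE).

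The pathway's activators and a repressor moved in opposite directions. MYB75, an activator, had 29.03 normalized counts in low R:FR and 165 in white light. Its relative MYB90 had 4.15 normalized counts in low R:FR and 63.2 in white light, and their partner TT8 had 20.7 normalized counts in low R:FR and 106 in white light. MYBL2, a repressor of the same genes, had 296 normalized counts in low R:FR and 59.3 in white light (2.32 ± 0.19, SE). The further partners GL3, EGL3 and TTG1 had no call, with log2 ratios of -0.19, -0.18 and 0.02.

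Aliphatic glucosinolates are methionine-derived defence compounds, and nearly all genes of their list fell. Of 22 genes 20 fell, 15 were at least 2-fold lower and 0 rose, with a median log2 ratio of -1.49. MYB29, an activator of the pathway, had 16.6 normalized counts in low R:FR and 177 in white light (-3.41 ± 0.39, SE), and MYB28, the other main activator, had 731 normalized counts in low R:FR and 1047 in white light. BCAT4, the first enzyme of methionine chain elongation, had 141 normalized counts in low R:FR and 1629 in white light (-3.53 ± 0.204, SE; edgeR adjusted p = 6.89e-08). CYP79F1, which commits the elongated amino acid to the pathway, had 139.6 normalized counts in low R:FR and 996 in white light (-2.83 ± 0.16, SE). MYB76 and SUR1 had no call.

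Indole glucosinolate genes, the tryptophan-derived branch, were mixed, with 7 of 18 tested risen and 3 fallen, against 4 and 3 with DESeq2. IGMT1, a methyltransferase of the branch, had 336 normalized counts in low R:FR and 49.3 in white light (2.77 ± 0.34, SE). TGG2, a myrosinase that activates glucosinolates on damage, had 702 normalized counts in low R:FR and 5433 in white light (-2.95 ± 0.15, SE). Of 28 sulfur genes 20 fell and 4 rose, while DESeq2 called 17 fallen and 2 risen. LSU2, a marker of sulfur need, had 102 normalized counts in low R:FR and 579 in white light (-2.500 ± 0.24, SE), whereas APS4, an ATP sulfurylase, had 2465 normalized counts in low R:FR and 645 in white light (1.93 ± 0.098, SE). The highest log2 ratio in the list was that of DIN2, with 455 normalized counts in low R:FR and 29.3 in white light (3.95 ± 0.22, SE). Of 24 nitrogen genes tested 7 rose and 7 fell, against 3 and 5 with DESeq2, with nitrite reductase NIR1 at 2499 normalized counts in low R:FR and 4648 in white light.

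Jasmonate genes were split, with 11 of 32 tested risen and 7 fallen, against 7 and 3 with DESeq2. AOC2, an enzyme of synthesis, had 694 normalized counts in low R:FR and 3181 in white light (-2.196 ± 0.13, SE), and LOX2, an earlier enzyme that could not be tested, had 2191 normalized counts in low R:FR and 14742 in white light. Among the genes that rose, CYP94B1, which oxidises the active form, had 408 normalized counts in low R:FR and 51.6 in white light (2.98 ± 0.18, SE), and the sulfotransferase ST2B had 521 normalized counts in low R:FR and 106 in white light (2.29 ± 0.16, SE). Of 15 salicylic acid and defence genes edgeR called 3 risen and 2 fallen, against 2 and 1 with DESeq2. THI2.2, a thionin, had 3037 normalized counts in low R:FR and 171 in white light (4.15 ± 0.15, SE), and PR5, a pathogenesis-related protein, had 9.68 normalized counts in low R:FR and 78.6 in white light.

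Genes known from cold, drought and abscisic acid rose in 31 of 42 cases and fell in 0, with a median log2 ratio of 0.99. RD29B, a desiccation-response gene, had 373 normalized counts in low R:FR and 64.7 in white light (2.53 ± 0.19, SE; edgeR adjusted p = 4.94e-07). COR413IM1, a chloroplast membrane protein of cold acclimation, had 2536 normalized counts in low R:FR and 501 in white light (2.34 ± 0.098, SE). NCED3, which makes the precursor of abscisic acid, had 120.3 normalized counts in low R:FR and 21.6 in white light, and CYP707A1, which breaks the hormone down, had 223 normalized counts in low R:FR and 59.3 in white light. Of 10 seed markers that passed the filter 4 rose and 2 fell, against 3 and 0 with DESeq2, and OLEO2, an oil body protein, had 74.6 normalized counts in low R:FR and 6.93 in white light. Summed over all 21 seed markers, with 6 at 0 in low R:FR and 5 in white light, the level was 903 normalized counts in low R:FR and 636 in white light, while the Col-0 libraries spanned 873 to 1053. The part of seed material in the abscisic acid genes was not tested.

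Of 16 hypoxia genes 12 fell and 3 rose. Their median log2 ratio was -1.69, but -1.05 with 5 times the added value. SUS4, a sucrose synthase, had 23.5 normalized counts in low R:FR and 497 in white light (-4.396 ± 0.48, SE). ADH1, alcohol dehydrogenase, had 69.1 normalized counts in low R:FR and 896 in white light (-3.69 ± 0.51, SE), and PDC1, pyruvate decarboxylase, had 73.3 normalized counts in low R:FR and 606 in white light (-3.05 ± 0.38, SE). Within white light the 2 Col-0 libraries differed, with 888 and 380 for ADH1 and 421 and 216 for SUS4. The mutant has 1 white light library, so its own spread is not known. The genes that rose were RAP2.2, EBP and RAP2.12, which encode factors that oxygen sensing degrades, with log2 ratios of 0.71, 0.75 and 0.405.

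Of 33 iron and copper genes 11 fell and 6 rose, while DESeq2 called 8 fallen and 3 risen. NAS2, a nicotianamine synthase, had 82.9 normalized counts in low R:FR and 856 in white light (-3.37 ± 0.35, SE), FSD3, a superoxide dismutase of the chloroplast, had 283 normalized counts in low R:FR and 1024 in white light, and FRO2, an iron reductase of the root surface, had 144 normalized counts in low R:FR and 725 in white light. Of 23 phosphate starvation genes 7 fell and 2 rose (5 and 1 with DESeq2), with the acid phosphatase PAP17 at 189 normalized counts in low R:FR and 458 in white light. Cell division genes fell in 25 of 51 cases and rose in 2, while DESeq2 called 5 fallen and 1 risen. Only 1 of them, ANT, which prolongs organ growth, was at least 2-fold lower, with 205 normalized counts in low R:FR and 437 in white light. Of 40 surface lipid genes tested 16 rose and 11 fell, against 13 and 7 with DESeq2, with the wax enzyme KCS1 at 1344 normalized counts in low R:FR and 487 in white light. Of 14 heat shock genes 2 rose and 2 fell, against 1 and 0 with DESeq2, and the factor HSFA7A had 225 normalized counts in low R:FR and 46.98 in white light.

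Root markers, which a shoot sample should hold little of, were read in both mutant libraries and were mostly higher in low R:FR. Of 28 compared 17 rose and 1 fell, with a median log2 ratio of 1.09 in hfr1 pil1. CASP1, a membrane protein of the root endodermis, had 529 normalized counts in low R:FR and 163 in white light, and the root hair expansin EXPA7 had 177 normalized counts in low R:FR and 70.1 in white light. SCR and SHR, which pattern the root, had no call, and IRT1, the iron carrier of the root surface, fell, with 395 normalized counts in low R:FR and 1179 in white light. Summed over the list the level was 10395 normalized counts in hfr1 pil1 low R:FR and 5760.0 in hfr1 pil1 white light. The Col-0 libraries held 10100 and 9804 in low R:FR and 8049 and 9716 in white light, so the mutant white light library was the lowest of 6. No root marker was at 0 in any library. The shoot markers were abundant, with RBCS1A at 60418 normalized counts in low R:FR and 144060.0 in white light. Of the flower markers only SEP3 passed the filter, with no call.

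**Figure D4:**
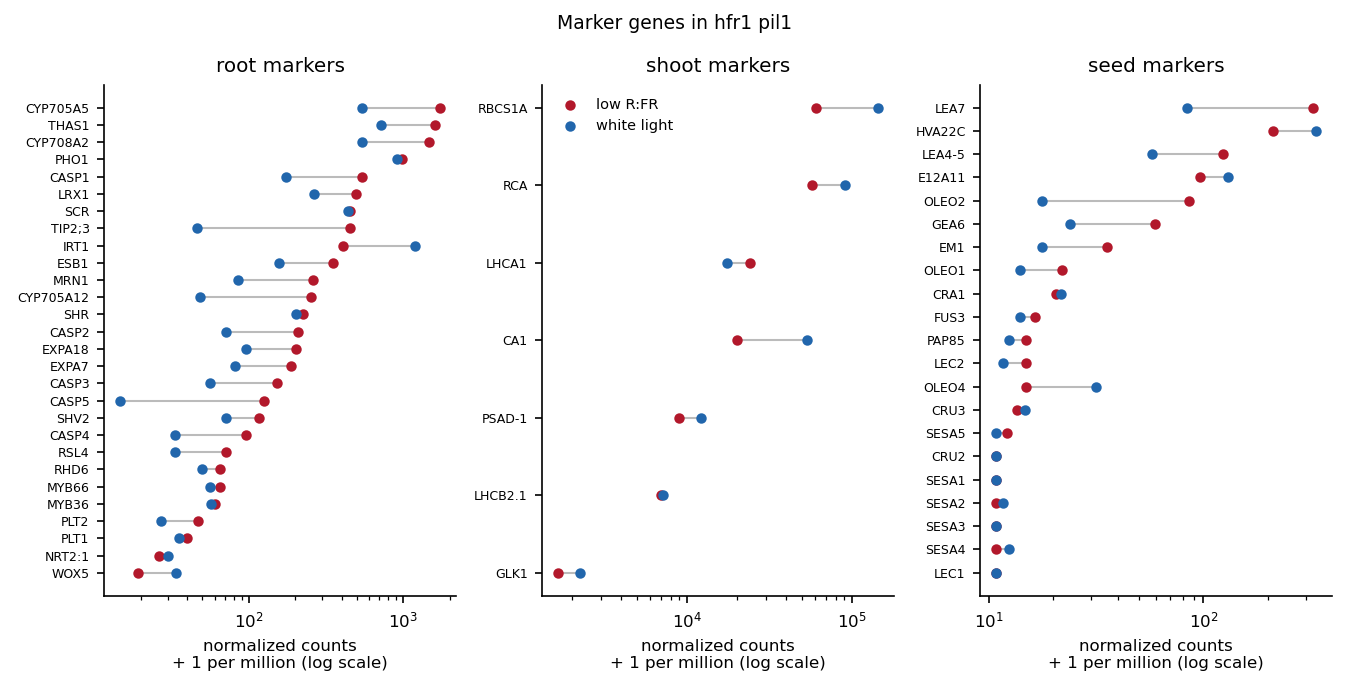
Normalized counts with 10.8 added (log scale) of root, shoot and seed markers in the low R:FR library (red) and the white light library (blue) of hfr1 pil1, 1 gene per row. Root markers such as CASP5 and TIP2;3 are higher in low R:FR, while SCR, SHR and MYB36 lie at nearly the same level in both lights.

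Other groups also rose in hfr1 pil1. Of 20 aquaporins tested 11 rose and 2 fell (10 and 0 with DESeq2), led by TIP2;3, itself a root marker, with 441 normalized counts in low R:FR and 35.4 in white light (3.63 ± 0.33, SE). PIP1C, a water channel of the plasma membrane, had 5996 normalized counts in low R:FR and 2456 in white light. The median log2 ratio of the aquaporins was 0.92 in hfr1 pil1 and 0.81 in Col-0. That of the root markers was 1.09 in hfr1 pil1 and 0.055 in Col-0. Genes of the thalianol cluster on chromosome 5, which make a root triterpene, rose side by side. THAS1, its synthase, had 1598 normalized counts in low R:FR and 706 in white light, and CYP705A5 had 1722 normalized counts in low R:FR and 531 in white light. The part of root material in these results and in the iron genes was not tested.

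The thalianol genes form 1 of 9 runs of at least 4 neighbouring loci that were all past 2-fold in the same direction, 8 higher and 1 lower. A run of 4 holds SAUR26 to SAUR29, with log2 ratios from 1.45 to 2.00. Another joins the clock-related gene LNK4, at a log2 ratio of 1.93, and AT5G06990 at 1.19 with ST2B at 2.18 and ST2A at 5.36. RCI2A and RCI2B, small cold-induced membrane proteins, lie in a further run, with RCI2A at 4917 normalized counts in low R:FR and 1806 in white light. The lower run has 5 loci, 4 of them annotated as lipid-transfer proteins, and AT4G22513 in it had 76.02 normalized counts in low R:FR and 651 in white light. Neighbours of this kind are often copies of each other, between which reads may have been shared.

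The mutant response was compared with that of Col-0 by a test of the difference itself. With edgeR, 397 loci had a higher (1.98%) and 365 a lower (1.82%) log2 fold change in hfr1 pil1 than in Col-0. An unadjusted p under 0.05 was reached by 3259 of the 20010 loci, and how many true differences this test recovers was not simulated. DESeq2 called 96 and 130, and edgeR without a filter on low loci 827 and 745. Without the first Col-0 white light library there were 652 and 525, and without the second Col-0 low R:FR library 281 and 239. Since both responses are taken against their own white light library, a difference can come from either light.

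Aliphatic glucosinolate genes fell further in the mutant in 12 of 22 cases, and their median log2 ratio was -1.49 in hfr1 pil1 and -0.498 in Col-0. CYP79F1 had 139.6 normalized counts in low R:FR and 996 in white light in hfr1 pil1, and Col-0 had 662 in low R:FR and 814 in white light (difference -2.53, edgeR adjusted p = 2.08e-05). MAM1, a synthase of chain elongation, had 746 normalized counts in low R:FR and 2484 in white light in hfr1 pil1, and Col-0 had 2020.5 in low R:FR and 2113 in white light (difference -1.67, edgeR adjusted p = 0.000119). Chlorophyll synthesis genes also fell further, in 12 of 25 cases, by smaller amounts such as -0.61 for HEME1 (edgeR adjusted p = 0.0175).

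Of 20 early flavonoid genes 7 had a higher and 0 a lower log2 fold change in hfr1 pil1 than in Col-0. The list's median log2 ratio was -0.89 in hfr1 pil1 and -1.46 in Col-0. TT4 fell in both and fell less in hfr1 pil1. It had 2628 normalized counts in low R:FR and 7699 in white light in hfr1 pil1. Col-0 had 846 in low R:FR and 10223 in white light (difference 2.04, edgeR adjusted p = 1.99e-05). In the cold and abscisic acid list the response was higher in hfr1 pil1 in 12 of 42 cases and lower in 1. KIN1, a cold-induced protein, had 518 normalized counts in low R:FR and 138 in white light in hfr1 pil1, and Col-0 had 317 in low R:FR and 483 in white light (difference 2.47, edgeR adjusted p = 0.00414). Here the mutant white light library was below both Col-0 columns. The summed seed markers, 636 there against 873 to 1053 in the Col-0 libraries, and the summed root markers were also lowest in that library, and their part in this result was not tested.

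Shade and growth genes differed in both directions. Of 20 shade regulators 5 had a higher and 2 a lower response in hfr1 pil1. The 2 with a lower response were HFR1 and PIL1, the genes named in the genotype. Of 26 xyloglucan hydrolases tested 5 had a higher and 4 a lower response. ATHB2 had 1079.5 normalized counts in low R:FR and 60.8 in white light in hfr1 pil1, and Col-0 had 492 in low R:FR and 67.95 in white light (difference 1.25, edgeR adjusted p = 0.0142). The difference was 1.596 for ST2A (edgeR adjusted p = 0.00691), 1.29 for the wall enzyme XTH17 (edgeR adjusted p = 0.00494) and 1.83 for YUC9 (edgeR adjusted p = 0.0125). It was -1.18 for XTH9, of the same wall enzyme family (edgeR adjusted p = 0.00209), and -1.28 for PIL1 (edgeR adjusted p = 0.0451). For FT, PIF4 and PIF5 the differences of 0.05, -0.12 and 0.01 had no call, which does not show that the responses were equal. HFR1 had the most negative difference of the named loci, -2.87 (edgeR adjusted p = 6.72e-05), with 189 normalized counts in mutant white light beside 22.2 and 33.6 in the Col-0 white light libraries.

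**Figure D5:**
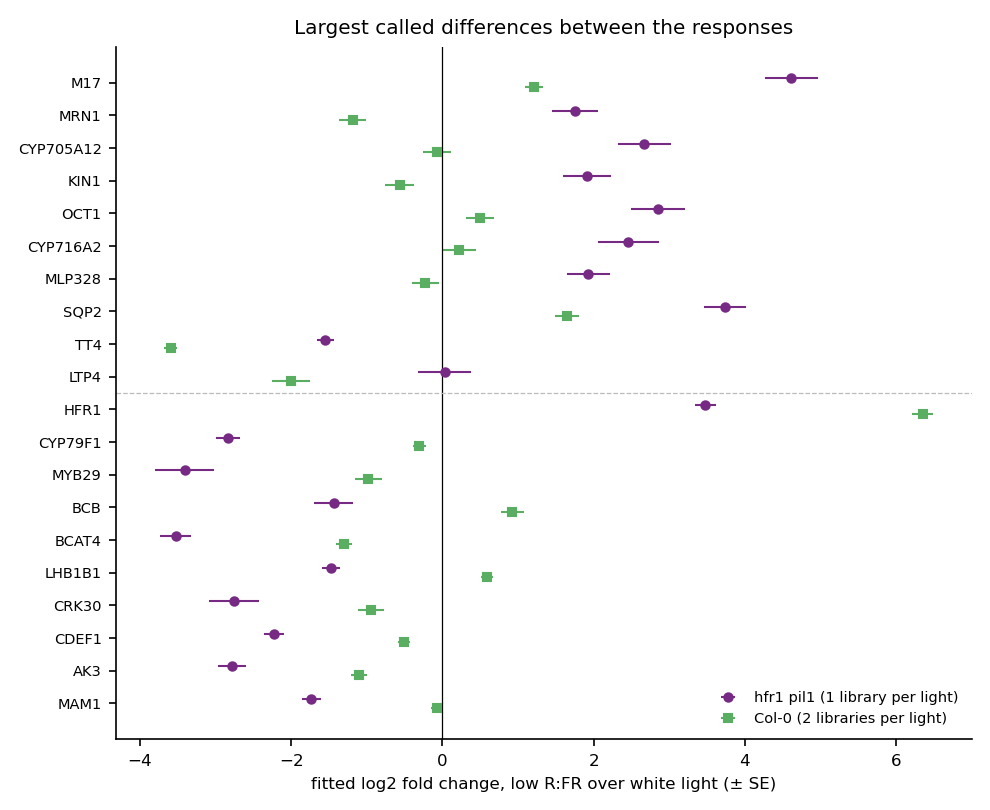
Fitted log2 fold change of low R:FR over white light, with SE bars, in hfr1 pil1 (1 library per light) and in Col-0 (2 libraries per light) for the 10 named loci with the most positive and the 10 with the most negative called difference. MRN1, KIN1, BCB and LHB1B1 have fold changes of opposite sign in hfr1 pil1 and Col-0.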

How the data were processed

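RNA from shoots of 4 samples was measured, 1 per genotype and light. The authors deposited a normalized signal for 33558 loci, which is read counts over 1 factor per library. The submitters' processing notes name Bowtie and the TAIR10 build without versions, and no source used here names the counting tool. By their headers both Col-0 columns average libraries. Mutant values resolved into whole reads of 1 library each, and Col-0 values into 2 libraries per column, except at 85 low R:FR loci and 74 white light loci.

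The design allowed no test with 1 sample per group, so the test of the 6 libraries was added once whole reads had been recovered. It used edgeR 4.0.16 in R 4.3.3 (quasi-likelihood, the authors' factors, Benjamini-Hochberg adjustment) over 20010 loci, with DESeq2 1.42.0 as an alternative. The SE is the absolute log2 fold change over the square root of F and can be narrower than counting error. Tested on simulated data of 20010 genes, the mutant comparison recovered 69% of 2-fold and 91% of 4-fold changes, with 9 false among 169 calls. The simulation gave every gene the same spread in all libraries, and no other gene differed between groups. It thus could not test whether mutant libraries vary like those of Col-0, and real loci differ in spread. Intervals are exact (Clopper-Pearson, 95%).

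Named genes are HFR1, PIL1, the 20 highest and 20 lowest log2 ratios among nuclear loci with a symbol and a mutant mean of at least 5 times the filter, up to 4 called members per list with up to 2 of opposite direction, and 10 called differences each way. Other genes were chosen after their values were seen, to spell out counts and roles. The members and all 44 lists were chosen with earlier results of these data known.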

Additional observations from a re-analysis of the deposited data

Results flagged for a closer look

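In 20 named loci the response to low R:FR differed between hfr1 pil1 and Col-0 by the test of the difference itself (edgeR, adjusted p under 0.05). They were picked as the largest differences among the calls of that test, so their calls are no separate support. The log2 response was higher in hfr1 pil1 by 3.41 for M17, 2.94 for MRN1, 2.74 for CYP705A12, 2.47 for KIN1 and 2.35 for OCT1. It was higher by 2.24 for CYP716A2, 2.16 for MLP328, 2.09 for SQP2, 2.04 for TT4 and 2.03 for LTP4. MRN1 and CYP705A12 belong to the marneral cluster and are root markers, which were lowest in the mutant white light library, and their part was not tested. M17 had 229 normalized counts in low R:FR and 9.24 (12 reads) in white light in hfr1 pil1. Col-0 had 423 in low R:FR and 178 in white light, so the mutant level of M17 was lower in both lights. The difference was -2.87 for HFR1, -2.53 for CYP79F1, -2.43 for MYB29, -2.36 for BCB and -2.23 for BCAT4. It was -2.06 for LHB1B1, whose reads may be shared with a near-identical copy, -1.81 for CRK30, -1.71 for CDEF1, -1.69 for AK3 and -1.67 for MAM1.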

How the results depend on the processing

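Loci at least 2-fold higher and lower numbered 1304 and 918, and 677 and 511 with 5 times the added value. An exact binomial test of the 2 mutant libraries, which covers counting error only, called 4797 and 4829. The other scalings, filters and thinning gave counts within 1.5 times. The edgeR counts of 3677 risen and 3707 fallen loci were 1801 and 1763 with DESeq2, and ranged from 3599 to 3908 and from 3640 to 3890 when each Col-0 library was left out in turn. The differences from Col-0, 397 higher and 365 lower, were 96 and 130 with DESeq2, which gave an adjusted p for 7208 loci, and 827 and 745 without a filter, an alternative added after seeing the data. Leaving out each Col-0 library in turn gave 281 to 652 higher and 239 to 525 lower. No locus was called in opposite directions by any of these fits. Of 224 named genes 30 lost their edgeR call with DESeq2 and CESA5 also with TMM normalization and without either Col-0 low R:FR library. No named log2 ratio of at least 1, or of -1 or less, changed sign, and smaller ones were not checked for this. The medians of the heat shock, iron and copper, and nitrogen lists changed sign when the columns were rescaled to the same total. The order of list medians depended on the settings, with shade regulators above SAUR genes and aliphatic glucosinolates below hypoxia genes at 5 times the added value. No paired analysis was possible because each labelled group has 1 sample. Depth limits low loci, since 1 read in the low R:FR library is worth 1.38 normalized counts.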
